A study of Mus musculus with 7 samples.

Results

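The cell cycle genes described here are 45 genes that drive, brake or mark the division cycle, taken by name from the 38579 gene entries of an RNA sequencing table of mouse fetal mammary cells. All 45 were found, and for Rb1, which has 2 rows, the row with the higher mean was used. Primary cells were taken fresh by flow sorting from CD1 embryos at E17.5, an age at which the mammary rudiment is a small epithelial sprout inside mesenchyme. A pair of sorting strategies was examined, and each gave a fraction named for the fetal mammary stem cell (fMaSC), and a stromal fraction. Sox10+EpCAM+ fMaSC (2 libraries) carried the Sox10-Venus fluorescent reporter and the epithelial surface protein EpCAM, and their counterpart was EpCAM-negative stroma, titled Sox10-negative and lineage-negative, which is a single library. CD24+CD49f+ fMaSC (2 libraries) were sorted on the surface proteins CD24 and CD49f as lineage-negative cells, and their counterpart was CD24low stroma (2 libraries), also lineage-negative. The title of Sox10+EpCAM+ replicate 1 does not mention lineage depletion, while its column name does. The labels call the libraries biological replicates without naming animals or litters, so p-values measure only the spread between these libraries.

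The values are FPKM, fragment counts scaled to transcript length and to library size, as deposited. Depth was approximately 25100000 to 37700000 fragments per library, and the weakest measurement among the 45 genes, Cdkn2c in Sox10+EpCAM+ fMaSC replicate 2, rested on about 111 fragments. All 45 genes passed the filter of 1 FPKM in at least 2 libraries, so none was dropped. The fractions carried the markers of their names, since 8 epithelial markers summed to 805 and 949.3 FPKM in Sox10+EpCAM+ fMaSC and to 573.1 and 372.2 FPKM in CD24+CD49f+ fMaSC, against 2.77 to 7.39 FPKM in the 3 stroma libraries. The 8 stromal markers summed to 45.9 and 75.0 FPKM in Sox10+EpCAM+ fMaSC but to 2083 and 3332 FPKM in CD24+CD49f+ fMaSC, against 6167 to 7269 FPKM in stroma. Erythroid markers summed to 3308 FPKM in CD24+CD49f+ fMaSC replicate 1 and to at most 374.9 FPKM elsewhere. In bulk samples such as these, fewer cells of a type and less RNA per cell cannot be told apart.

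Division is entered when D cyclins (Ccnd1, Ccnd2, Ccnd3) bind Cdk4 or Cdk6 and phosphorylate the retinoblastoma family (Rb1, Rbl1, Rbl2), which releases E2F factors to switch on genes of DNA replication. E cyclins with Cdk2 complete that step, A and B cyclins with Cdk1 carry the cell to mitosis, and genes of this late phase are switched on by the MuvB complex with Mybl2 and Foxm1. Inhibitors set the threshold: the INK4 proteins (such as Cdkn2b and Cdkn2c) bind Cdk4 and Cdk6, and the CIP/KIP proteins (Cdkn1a, Cdkn1b, Cdkn1c) bind cyclin complexes. In mouse mammary epithelium cyclin D1 is known to be needed for the lobuloalveolar growth of pregnancy.

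Promoters of S phase genes are known for E2F sites and those of mitotic genes for a CHR element, so a few windows are shown of genes whose roles and values order the results. RefSeq windows (GRCm38.p6, 250 bases before to 50 after the annotated start) were matched for 36 of the 45 genes, giving 42 windows. Each was searched on both strands for an E2F motif (TTCCCGC or TTCGCGC or TTGCCGC or TTGGCGC), for the cell cycle homology region (CHR, TTTGAA) and for the CCAAT box (CCAAT). Capitals mark all matches, adjacent matches may share letters, and each window is printed 5′ to 3′ on the strand of its gene. Licensing and synthesis genes in which the E2F motif appears are represented by Cdt1, Mcm5 and Rrm2, late and mitotic genes with CHR matches by Top2a, Mki67 and Cdc20, and the inhibitors by Cdkn1b and Cdkn2c.
Cdt1 (chr8:122567765-122568064, plus strand): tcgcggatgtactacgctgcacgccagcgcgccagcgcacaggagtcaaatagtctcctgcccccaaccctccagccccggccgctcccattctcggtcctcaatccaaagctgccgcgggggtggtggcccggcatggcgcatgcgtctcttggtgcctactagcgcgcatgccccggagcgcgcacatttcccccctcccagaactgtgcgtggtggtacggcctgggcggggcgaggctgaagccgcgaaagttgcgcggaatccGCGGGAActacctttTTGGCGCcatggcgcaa
Mcm5 (chr8:75109259-75109558, plus strand): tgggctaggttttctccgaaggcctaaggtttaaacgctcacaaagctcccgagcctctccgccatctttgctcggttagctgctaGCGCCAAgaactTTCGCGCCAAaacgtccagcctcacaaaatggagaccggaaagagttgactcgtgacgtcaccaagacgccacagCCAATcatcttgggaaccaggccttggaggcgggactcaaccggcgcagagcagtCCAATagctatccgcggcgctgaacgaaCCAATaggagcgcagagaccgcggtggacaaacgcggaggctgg
Rrm2 (chr12:24708004-24708303, plus strand): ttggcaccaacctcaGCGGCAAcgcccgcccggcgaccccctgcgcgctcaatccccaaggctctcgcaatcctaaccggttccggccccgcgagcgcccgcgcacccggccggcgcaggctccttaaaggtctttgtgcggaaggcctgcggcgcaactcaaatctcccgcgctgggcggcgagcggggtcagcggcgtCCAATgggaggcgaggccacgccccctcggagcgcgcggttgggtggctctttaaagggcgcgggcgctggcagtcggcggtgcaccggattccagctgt
Top2a (chr11:99024140-99024439, minus strand): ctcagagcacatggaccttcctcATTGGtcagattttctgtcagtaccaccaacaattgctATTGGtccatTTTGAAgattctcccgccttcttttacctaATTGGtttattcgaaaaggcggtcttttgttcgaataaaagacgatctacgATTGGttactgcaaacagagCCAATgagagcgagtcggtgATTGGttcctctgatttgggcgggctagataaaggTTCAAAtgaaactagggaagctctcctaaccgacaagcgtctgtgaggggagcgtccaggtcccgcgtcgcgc
Mki67 (chr7:135716330-135716629, minus strand): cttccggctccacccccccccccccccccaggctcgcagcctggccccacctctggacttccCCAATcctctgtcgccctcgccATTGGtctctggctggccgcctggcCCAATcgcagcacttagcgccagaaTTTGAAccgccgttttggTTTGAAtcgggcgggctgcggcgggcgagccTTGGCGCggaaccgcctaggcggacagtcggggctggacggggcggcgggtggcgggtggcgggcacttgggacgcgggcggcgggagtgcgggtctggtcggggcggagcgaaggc
Cdc20 (chr4:118437294-118437593, minus strand): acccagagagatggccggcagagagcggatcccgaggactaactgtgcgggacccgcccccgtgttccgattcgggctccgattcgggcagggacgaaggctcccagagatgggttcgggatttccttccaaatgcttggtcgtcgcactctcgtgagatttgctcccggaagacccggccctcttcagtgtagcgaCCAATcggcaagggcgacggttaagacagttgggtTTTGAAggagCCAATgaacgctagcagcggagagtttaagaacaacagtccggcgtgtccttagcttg
Cdkn1b (chr6:134920151-134920450, plus strand): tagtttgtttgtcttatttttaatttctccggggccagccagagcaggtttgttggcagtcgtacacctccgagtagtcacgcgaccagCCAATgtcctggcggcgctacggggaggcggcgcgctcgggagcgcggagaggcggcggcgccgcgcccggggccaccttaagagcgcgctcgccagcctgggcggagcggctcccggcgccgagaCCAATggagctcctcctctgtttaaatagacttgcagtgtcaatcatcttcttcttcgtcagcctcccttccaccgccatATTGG
Cdkn2c (chr4:109666707-109667006, minus strand): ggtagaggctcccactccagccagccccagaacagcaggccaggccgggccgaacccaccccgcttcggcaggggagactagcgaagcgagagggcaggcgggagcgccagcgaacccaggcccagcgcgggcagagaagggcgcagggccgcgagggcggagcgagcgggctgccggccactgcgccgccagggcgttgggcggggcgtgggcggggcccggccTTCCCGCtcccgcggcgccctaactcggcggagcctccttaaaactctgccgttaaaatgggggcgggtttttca

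The E2F motif lay in 9 of 12 windows of licensing and DNA synthesis genes (75.0%) and in 3 of 12 windows of late and mitotic genes (25.0%), while 9.57% of all 32851 RefSeq windows held it. The CHR lay in 1 of 12 licensing and synthesis windows (8.33%) and in 8 of 12 late and mitotic windows (66.7%), against 17.9% of all windows. CCAAT boxes were frequent in both sets, in 75.0% and 83.3% of windows, against 37.4% of all windows. Of the windows shown, Mki67 held all 3 motifs, the upstream Cdkn2c window held an E2F motif, and Cdkn1b held CCAAT boxes alone. These are matches of letters and not sites shown to be bound.

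Set against stroma over both sorts, fMaSC carried more RNA of cyclin D1, its kinase Cdk4, the inhibitor p27 and several licensing and DNA synthesis genes, and less of cyclin D3. Of the 45 genes, 10 rose and 1 fell in fMaSC with limma and Benjamini-Hochberg adjustment over 14418 genes at a threshold of 0.05. That is 22.2% higher and 2.22% lower, where 15.6% of all genes tested were called higher and 9.5% lower (25.1% in all). The genes that rose were Ccnd1, Cdk4, Cdkn1b, Gmnn, Cdt1, Mcm5, Mcm7, Rrm2, Tyms and Mybl2, and the gene that fell was Ccnd3. The median log2 fold change of the 45 genes was 0.31, and that of all genes tested was 0.12. All 4 fMaSC libraries lay above all 3 stroma libraries for 18 genes (40.0%, with 23.3% of all genes doing so) and below them for 3 genes (6.67%, with 13.7% of all genes), which were Ccnd3, Ccne1 and Cdkn2c. The total of 11 calls became 3, 3, 4 and 1 without Sox10+EpCAM+ fMaSC replicate 1, without Sox10+EpCAM+ fMaSC replicate 2, without CD24low stroma replicate 1 and without the EpCAM-negative library, with Ccnd1 called in each of these. Without the EpCAM-negative library no stroma is left in the Sox10 sort, so here and for each gene named later that fit is the CD24 sort's comparison and no separate check. The count also moved with library scaling, which shifts the median of all genes: 4 rose and 1 fell with TMM-like factors, 5 rose and 2 fell with quantile scaling, 1 rose and 1 fell with equal sums without mitochondrial rows, and 0 rose and 1 fell with equal sums over all rows. With all libraries, the 10 genes that rose kept a positive fold under each of these scalings, but some folds were very small. With equal sums over all rows they ran from 0.014 for Mcm5 (limma adjusted p = 0.98) to 1.04 for Ccnd1 (adjusted p = 0.0857). Those of Mcm7, Tyms and Mybl2 were 0.097, 0.16 and 0.20 there, and none of the 10 was called, so the sign alone does not show a rise.

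**Figure D1:**
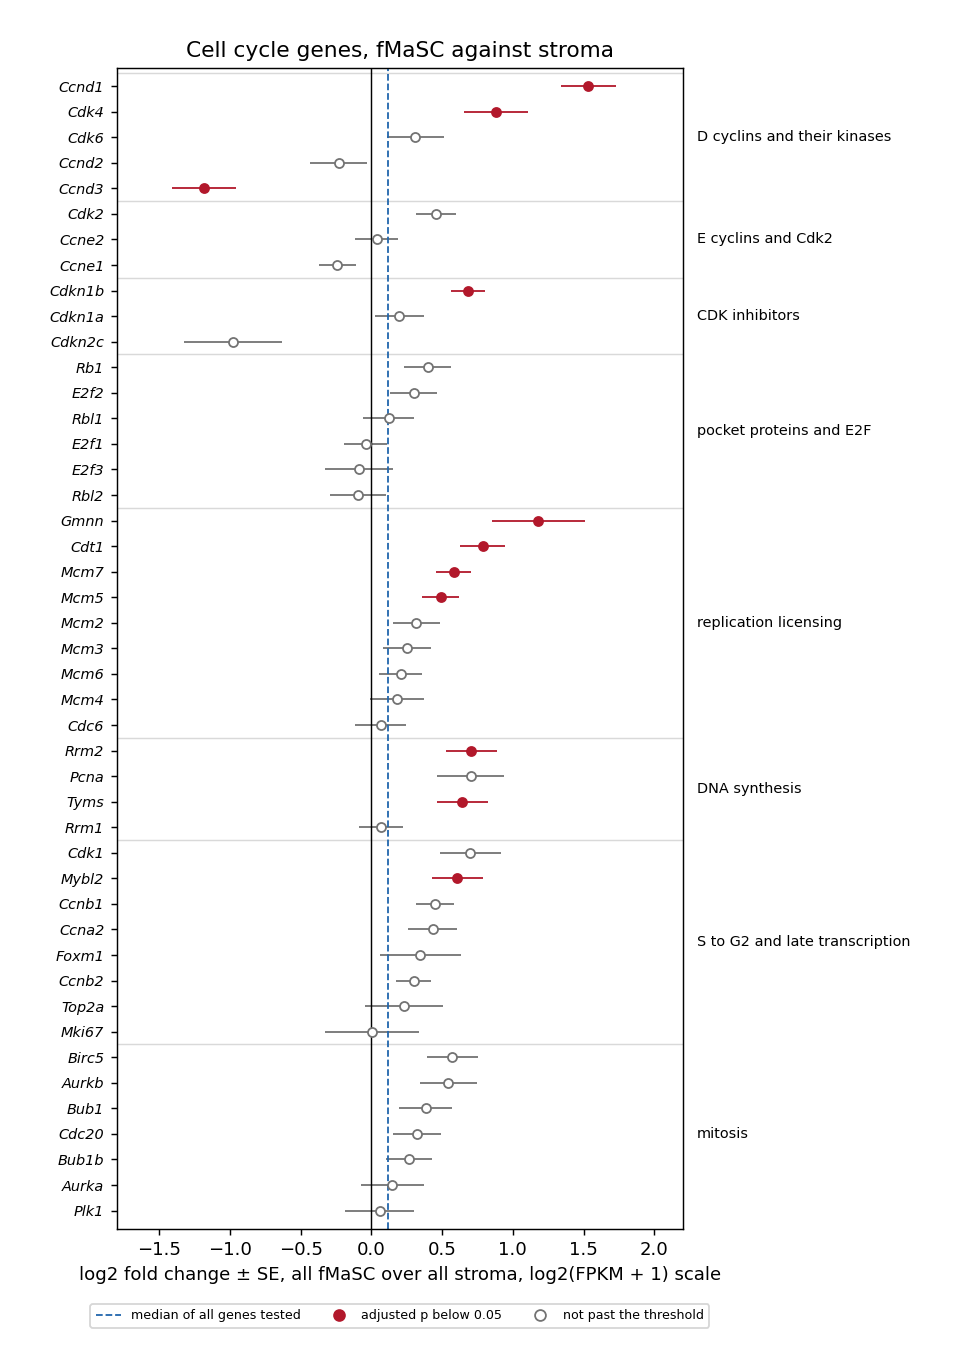
Log2 fold change (fMaSC over stroma, both sorts together, on the log2(FPKM + 1) scale) of each of the 45 genes, with bars of 1 standard error, ordered by role. Filled points passed an adjusted p of 0.05, the dashed line is the median of all genes tested (0.12), and Ccnd1 at 1.53 and Ccnd3 at -1.18 lie farthest from it.

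Cyclin D1 RNA was higher and cyclin D3 RNA lower in fMaSC than in stroma. Ccnd1 had 63.6 and 77.8 FPKM in Sox10+EpCAM+ fMaSC and 43.9 and 52.8 FPKM in CD24+CD49f+ fMaSC, against 18.9 FPKM in EpCAM-negative stroma and 21.3 and 16.2 FPKM in CD24low stroma. All fMaSC libraries were above all stroma libraries, and the rise was 1.53 ± 0.19 (log2, SE) over both sorts, with a limma adjusted p of 0.00265 (1.04 and 0.0857 with libraries set to equal sums). It passed in each sort taken alone, at 1.84 ± 0.28 in the Sox10 sort (adjusted p = 0.00539) and at 1.33 ± 0.23 in the CD24 sort (adjusted p = 0.018). With equal sums, over all rows or without mitochondrial rows, neither sort's call held: the Sox10 fold was 1.04 and 1.22 (adjusted p = 0.245 and 0.144), and the CD24 fold was 1.04 and 1.04 (adjusted p = 0.399 and 0.271). The CD24 value was past the threshold with all libraries in the fit but not without either Sox10+EpCAM+ or either CD24low library (adjusted p up to 0.121).

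Ccnd3 ran the other way. It had 23.7 and 29.7 FPKM in Sox10+EpCAM+ fMaSC and 48.9 and 63.8 FPKM in CD24+CD49f+ fMaSC, against 85.2 FPKM in EpCAM-negative stroma and 111 and 96.1 FPKM in CD24low stroma. The order was the same in all libraries, with Sox10+EpCAM+ fMaSC lowest, CD24+CD49f+ fMaSC between, and stroma highest. Over both sorts Ccnd3 fell by 1.18 ± 0.23 (adjusted p = 0.0122, and 0.0683 without the EpCAM-negative library). In the Sox10 sort it fell by 1.65 ± 0.29 (adjusted p = 0.0091, and 0.0861 without Sox10+EpCAM+ replicate 1), and in the CD24 sort its fold was -0.87 ± 0.23 (adjusted p = 0.0707). A processed copy listed as Ccnd3-ps held 2.41 to 7.13 FPKM in fMaSC and 7.78 to 10.7 FPKM in stroma, in the same direction, so reads shared with it cannot be set apart.

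Ccnd2 did not separate the fractions, with 36.2 and 40.8 FPKM in Sox10+EpCAM+ fMaSC, 25.5 and 40.1 FPKM in CD24+CD49f+ fMaSC, 51.5 FPKM in EpCAM-negative stroma and 37.9 and 31.6 FPKM in CD24low stroma. Its fold was -0.23 ± 0.20 (adjusted p = 0.402). As shares of the summed D cyclin FPKM, which is scaled per transcript length, Ccnd1 made up 51.5% and 52.5% in Sox10+EpCAM+ fMaSC and 37.1% and 33.7% in CD24+CD49f+ fMaSC, against 12.2% in EpCAM-negative stroma and 12.5% and 11.3% in CD24low stroma. Ccnd3 made up 19.2% and 20.1% in Sox10+EpCAM+ fMaSC and 41.3% and 40.7% in CD24+CD49f+ fMaSC, against 54.7% in EpCAM-negative stroma and 65.2% and 66.8% in CD24low stroma. The sum of the 3 D cyclins was 118.4 to 156.7 FPKM in fMaSC and 143.9 to 170.3 FPKM in stroma and these ranges overlapped. The CD24+CD49f+ libraries, which sit between on Ccnd3, are also those with the intermediate stromal marker sums given above, and the part of those markers in the Ccnd3 level was not tested.

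**Figure D2:**
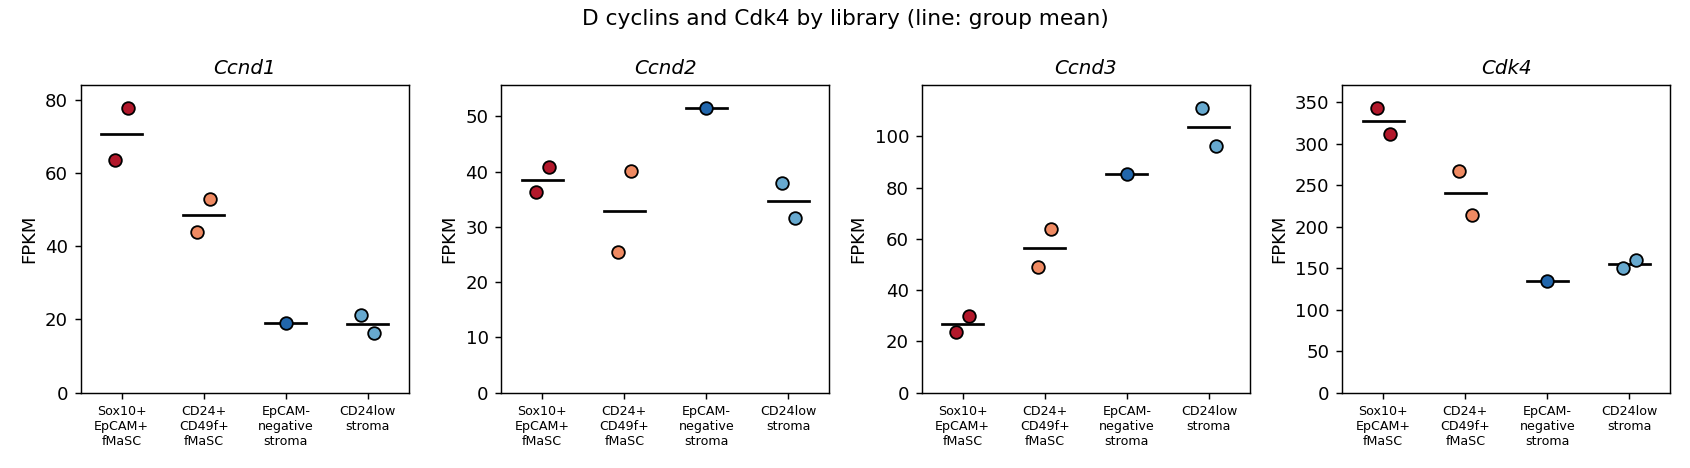
FPKM of the D cyclins and their kinase Cdk4 in each library (points) with the group mean (line), fMaSC at the left and stroma at the right of each panel. Ccnd1 and Cdk4 are higher in every fMaSC library, Ccnd3 is lower in every one, and Ccnd2 overlaps.

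Of the D cyclin kinases, Cdk4 was the more abundant and rose. It had 343 and 311 FPKM in Sox10+EpCAM+ fMaSC and 267 and 214 FPKM in CD24+CD49f+ fMaSC, against 135 FPKM in EpCAM-negative stroma and 150 and 160 FPKM in CD24low stroma. The groups did not overlap, and the fold was 0.88 ± 0.23 (adjusted p = 0.0335), a call lost without either Sox10+EpCAM+ library, CD24+CD49f+ replicate 1, the EpCAM-negative library or CD24low replicate 1 (adjusted p up to 0.213). The Cdk4 call was also lost without the filter and under each of the scalings named above. Its fold was 0.38 with equal sums over all rows (limma adjusted p = 0.263) and 0.74 with TMM-like factors (adjusted p = 0.062). Cdk6, the other partner of D cyclins, was low throughout, at 2.02 to 3.85 FPKM in fMaSC and 1.58 to 2.196 FPKM in stroma (log2 fold 0.31 ± 0.20, adjusted p = 0.277).

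None of the E cyclins or Cdk2 passed the threshold with limma, and 1 of the 3, Cdk2, had an unadjusted p under 0.05. Ccne1 ran from 6.999 to 8.52 FPKM in fMaSC and from 9.06 to 9.71 FPKM in stroma, which did not overlap, yet its fold was small (-0.24 ± 0.13, adjusted p = 0.199). Ccne2 overlapped, at 5.26 to 8.85 FPKM in fMaSC and 5.27 to 8.49 FPKM in stroma. Cdk2, the kinase that E and A cyclins activate, ran from 20.9 to 26.9 FPKM in fMaSC and from 15.5 to 18.2 FPKM in stroma (log2 fold 0.46 ± 0.14, adjusted p = 0.0554).

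The inhibitors split by gene, not by family. Cdkn1b, which encodes p27, had 20.8 and 20.8 FPKM in Sox10+EpCAM+ fMaSC and 20.3 and 19.8 FPKM in CD24+CD49f+ fMaSC, against 11.9 FPKM in EpCAM-negative stroma and 12.4 and 12.7 FPKM in CD24low stroma. The spread within each cell type was small, and Cdkn1b rose by 0.68 ± 0.12 (adjusted p = 0.00913, and 0.0513 without the EpCAM-negative library). It rose beside Ccnd1 and Cdk4, whose complexes p27 is known to bind. Cdkn1b did not keep its call when libraries were set to equal sums or to equal sums without mitochondrial rows, where its fold was 0.21 and 0.27.

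Among the 3 CDK inhibitors of the 45 genes, only Cdkn2c, which encodes p18, an INK4 inhibitor, had a called difference between the sorts. It had 1.85 and 1.47 FPKM in Sox10+EpCAM+ fMaSC and 7.13 and 7.78 FPKM in CD24+CD49f+ fMaSC, against 9.79 FPKM in EpCAM-negative stroma and 9.56 and 9.09 FPKM in CD24low stroma. In the Sox10 sort it fell by 2.02 ± 0.20 on the log2(FPKM + 1) scale (adjusted p = 0.00132), and this call held under all 16 alternatives tried. In the CD24 sort its fold was -0.29 ± 0.16 (unadjusted p = 0.127). The difference between those folds was itself called, at -1.73 ± 0.26 (adjusted p = 0.0402), where 1.44% of all genes were called lower in that test and 0.0763% higher (1.51% in all), and Cdkn2c was the only one of the 45 genes called. That call was lost without either Sox10+EpCAM+ or either CD24low library (adjusted p up to 0.254). The stromal marker sums differ between the fMaSC fractions in the same direction as Cdkn2c, and their part in it was not tested.

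Cdkn1a, which encodes p21, did not separate the cell types. It had 31.0 and 37.7 FPKM in Sox10+EpCAM+ fMaSC and 34.8 and 38.8 FPKM in CD24+CD49f+ fMaSC, against 23.2 FPKM in EpCAM-negative stroma and 37.2 and 37.9 FPKM in CD24low stroma (log2 fold 0.20 ± 0.18, adjusted p = 0.414). Of the 5 further inhibitor genes listed, 4 were tested, 1 rose and 1 fell (25.0% each, beside 15.6% and 9.5% of all genes). Between the fMaSC fractions 1 of the 4 was called lower in Sox10+EpCAM+ cells (25.0%), where 8.04% of all genes were. None of the 4 was called in the difference between the sorts. Cdkn1c, which encodes p57 and was the most abundant CDK inhibitor measured, had 90.6 and 102 FPKM in Sox10+EpCAM+ fMaSC and 194 and 174 FPKM in CD24+CD49f+ fMaSC, against 367 FPKM in EpCAM-negative stroma and 399 and 395 FPKM in CD24low stroma. It fell by 1.44 ± 0.24 (adjusted p = 0.00783) and, like Ccnd3 and Cdkn2c, lay lowest in Sox10+EpCAM+ fMaSC. Cdkn2b, which encodes p15, had 5.27 and 3.89 FPKM in Sox10+EpCAM+ fMaSC and 3.41 and 3.37 FPKM in CD24+CD49f+ fMaSC, against 1.20 FPKM in EpCAM-negative stroma and 0.952 and 0.786 FPKM in CD24low stroma, and it rose by 1.27 ± 0.14 (adjusted p = 0.00165, and 0.056 with equal sums). Stroma thus held more p57 and p18 RNA, and fMaSC more p27 and p15 RNA, with the p18 difference called in the Sox10 sort and not over both sorts (-0.98 ± 0.35, adjusted p = 0.0782). Of the stroma libraries only EpCAM-negative stroma reached 1 FPKM of Cdkn2b. That gene thus passed the filter only through fMaSC, and its rise carries that limit.

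**Figure D3:**
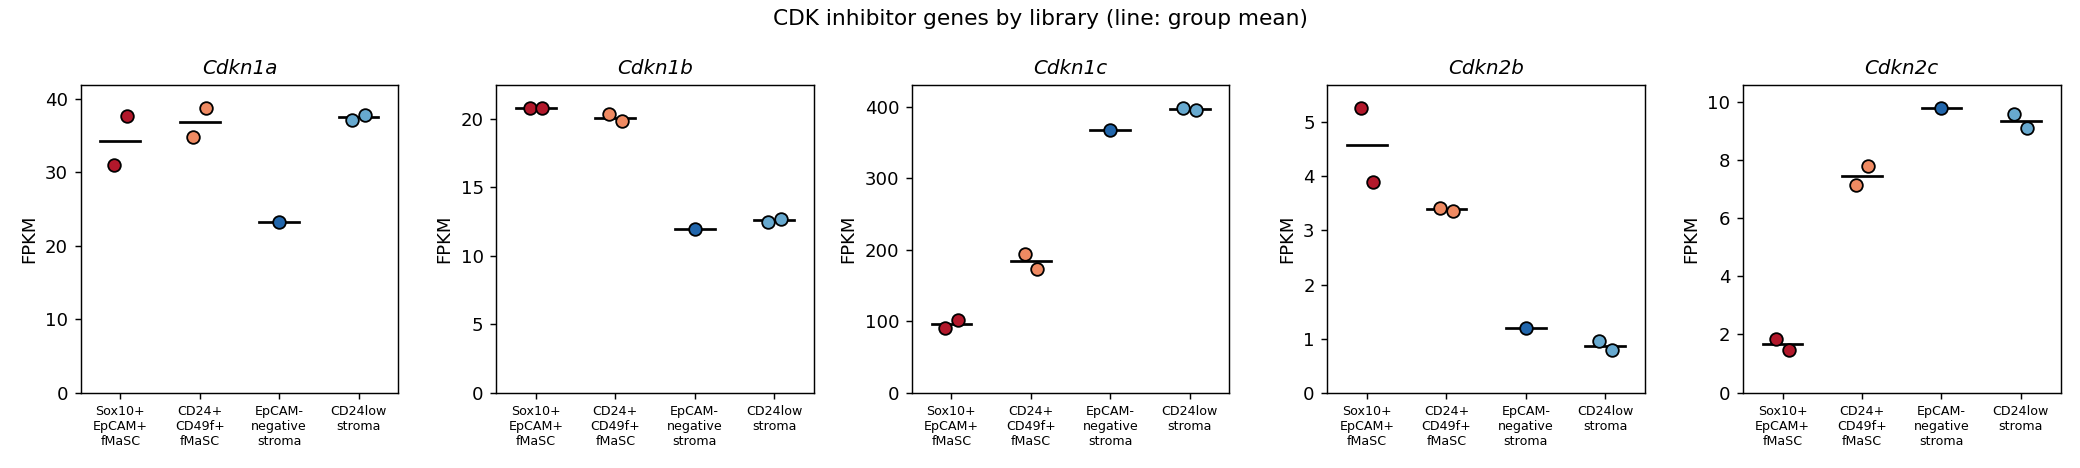
FPKM of 5 CDK inhibitor genes in each library (points) with the group mean (line). Cdkn1b and Cdkn2b are higher in every fMaSC library than in any stroma library, Cdkn1c is lower, Cdkn1a overlaps, and Cdkn2c drops to 1.85 and 1.47 FPKM in Sox10+EpCAM+ fMaSC.

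The pocket proteins and activator E2F genes, which receive the D cyclin signal, showed no call among 6 with limma, and 1 of them, Rb1, had an unadjusted p under 0.05. Rb1 ran from 4.39 to 5.49 FPKM in fMaSC and from 2.83 to 4.61 FPKM in stroma (log2 fold 0.40 ± 0.17, adjusted p = 0.117). E2f1 ran from 9.69 to 12.2 FPKM in fMaSC and from 9.51 to 12.6 FPKM in stroma, with a fold of -0.04 ± 0.15. For all 6 genes the fMaSC and stroma libraries overlapped. The other E2F and DREAM genes gave the same count, with none of 12 called and 4 at an unadjusted p under 0.05, all higher. Of all genes 25.1% were called even after adjustment, so those 4 are not read as a result about the list.

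Of the 9 replication licensing genes, 4 rose in fMaSC (44.4%) and none fell, where 15.6% of all genes were called higher and 9.5% lower. Cdt1, which loads the MCM helicase on origins, had 18.2 and 17.8 FPKM in Sox10+EpCAM+ fMaSC and 13.9 and 20.1 FPKM in CD24+CD49f+ fMaSC, against 9.05 FPKM in EpCAM-negative stroma and 9.996 and 9.89 FPKM in CD24low stroma. It rose by 0.79 ± 0.16 (adjusted p = 0.0158). Gmnn, which encodes geminin, the inhibitor of Cdt1, had 23.8 and 17.2 FPKM in Sox10+EpCAM+ fMaSC and 22.0 and 10.6 FPKM in CD24+CD49f+ fMaSC, against 5.74 FPKM in EpCAM-negative stroma and 6.07 and 10.4 FPKM in CD24low stroma. It rose by 1.18 ± 0.33 (adjusted p = 0.041), but its groups nearly touched, and the 2 CD24+CD49f+ libraries differed more than some fMaSC and stroma libraries did.

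Of the helicase subunits, Mcm7 rose by 0.58 ± 0.12 (adjusted p = 0.0182) and Mcm5 by 0.49 ± 0.13 (adjusted p = 0.0357). Mcm7 ran from 25.7 to 32.0 FPKM in fMaSC and from 17.7 to 19.7 FPKM in stroma. Mcm5 ran from 17.8 to 21.1 FPKM in fMaSC and from 12.8 to 14.7 FPKM in stroma. Mcm2, Mcm3, Mcm4 and Mcm6, subunits of the same hexamer, had folds between 0.18 and 0.32, none called, and Cdc6, which recruits the helicase with Cdt1, had 0.06 ± 0.18. With equal sums, over all rows or without mitochondrial rows, the calls of Cdt1, Mcm7, Mcm5 and Gmnn were all lost. Those of Mcm5 and Gmnn were lost with TMM-like and quantile scaling as well. The calls of Cdt1, Mcm7, Mcm5 and Gmnn were each lost without either Sox10+EpCAM+ library or the EpCAM-negative library. Without CD24low replicate 1 those of Mcm7, Mcm5 and Gmnn were lost too, without CD24+CD49f+ replicate 1 those of Mcm5 and Gmnn, and without CD24low replicate 2 that of Mcm5. The adjusted p in these fits was at most 0.093 for Cdt1, 0.0922 for Mcm7, 0.109 for Mcm5 and 0.247 for Gmnn.

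In DNA synthesis, 2 of 4 genes rose and none fell, where 15.6% of all genes were called higher and 9.5% lower. With only 4 genes, that count is not read as a result about the list. Rrm2, the regulated subunit of ribonucleotide reductase, had 37.0 and 34.5 FPKM in Sox10+EpCAM+ fMaSC and 31.9 and 41.9 FPKM in CD24+CD49f+ fMaSC, against 17.497 FPKM in EpCAM-negative stroma and 23.1 and 27.6 FPKM in CD24low stroma (0.71 ± 0.18, adjusted p = 0.0309). Tyms, thymidylate synthase, ran from 22.9 to 33.2 FPKM in fMaSC and from 15.4 to 19.4 FPKM in stroma (0.64 ± 0.18, adjusted p = 0.0424). Both calls were lost without either Sox10+EpCAM+ library, the EpCAM-negative library or CD24low replicate 1, and Tyms also without CD24+CD49f+ replicate 1 (adjusted p up to 0.188 for Rrm2 and 0.232 for Tyms). Each of the scalings named above also ended both calls, with folds of 0.22 for Rrm2 and 0.16 for Tyms at equal sums over all rows. Rrm1, the large subunit of ribonucleotide reductase, ran from 16.3 to 22.6 FPKM in fMaSC and from 16.6 to 19.3 FPKM in stroma and had a fold of 0.07 ± 0.16. Pcna, the replication clamp, ran from 72.5 to 109 FPKM in fMaSC and from 48.5 to 74.9 FPKM in stroma (0.70 ± 0.24, adjusted p = 0.0699). The near-identical copy Pcna-ps2 is listed at 73.6 to 167 FPKM, above Pcna itself in every library, so the level of Pcna is uncertain.

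Of the 8 genes of the S to G2 phase and late transcription, 1 rose (12.5%, near the 15.6% of all genes). Mybl2, the MuvB partner, had 5.52 and 5.59 FPKM in Sox10+EpCAM+ fMaSC and 4.51 and 6.91 FPKM in CD24+CD49f+ fMaSC, against 4.05 FPKM in EpCAM-negative stroma and 3.22 and 2.60 FPKM in CD24low stroma. Its fold of 0.61 ± 0.18 only just passed (adjusted p = 0.0494) and kept its call in 3 of 16 alternatives. The call ended without any of the libraries taken singly other than CD24+CD49f+ replicate 2 (adjusted p up to 0.114). Cdk1, the mitotic kinase, ran from 53.1 to 76.1 FPKM in fMaSC and from 35.8 to 56.5 FPKM in stroma (0.70 ± 0.21, adjusted p = 0.054). The A and B cyclin genes Ccna2, Ccnb1 and Ccnb2 were each higher in every fMaSC library than in any stroma library, with folds of 0.43, 0.45 and 0.30, and none of them was called (adjusted p = 0.106, 0.0512 and 0.12).

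The proliferation markers most used in tissue, Mki67 and Top2a, did not separate fMaSC from stroma. Mki67, which encodes the Ki-67 antigen, had 17.4 and 17.1 FPKM in Sox10+EpCAM+ fMaSC and 15.97 and 41.1 FPKM in CD24+CD49f+ fMaSC, against 24.55 FPKM in EpCAM-negative stroma and 20.4 and 20.3 FPKM in CD24low stroma. Of the fMaSC libraries 3 lay below all stroma libraries and CD24+CD49f+ replicate 2 lay above them all. Its fold was 0.00 ± 0.33 with all libraries (adjusted p = 0.998) and -0.41 without CD24+CD49f+ replicate 2 (adjusted p = 0.0386). With all 7 libraries its fold was also below 0 with equal sums (-0.48, adjusted p = 0.549), without mitochondrial rows (-0.41, adjusted p = 0.567), and with TMM-like and quantile scaling, so its direction depends on the scaling and on that library. Top2a, the topoisomerase of chromosome untangling, had 46.5 and 44.2 FPKM in Sox10+EpCAM+ fMaSC and 44.97 and 78.7 FPKM in CD24+CD49f+ fMaSC, against 56.8 FPKM in EpCAM-negative stroma and 35.8 and 42.7 FPKM in CD24low stroma (0.23 ± 0.28, adjusted p = 0.549). Foxm1, the late-phase transcription factor, ran from 11.8 to 23.7 FPKM in fMaSC and from 8.40 to 13.1 FPKM in stroma (0.35 ± 0.29, adjusted p = 0.384).

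None of the 7 mitosis genes was called with limma over both sorts, and 2, Birc5 and Aurkb, had an unadjusted p under 0.05. Birc5, which encodes survivin, a subunit of the chromosomal passenger complex, ran from 41.7 to 48.1 FPKM in fMaSC and from 24.2 to 36.5 FPKM in stroma (0.57 ± 0.18, adjusted p = 0.0576). Aurkb, the kinase of that complex, ran from 14.3 to 24.4 FPKM in fMaSC and from 11.2 to 13.4 FPKM in stroma (0.54 ± 0.20, adjusted p = 0.0868). Cdc20, the activator of the anaphase-promoting complex, was likewise higher in every fMaSC library, at 17.8 to 25.2 FPKM, against 14.98 to 17.51 FPKM in stroma (0.32 ± 0.17, adjusted p = 0.185). The spindle checkpoint kinases Bub1 and Bub1b had folds of 0.38 and 0.26, and Aurka and Plk1, kinases of spindle assembly, had 0.15 and 0.06. Among licensing genes 4 of 9 and among DNA synthesis genes 2 of 4 were called, against 1 of 8 late genes and 0 of 7 mitosis genes. Of all genes 15.6% were called higher and 9.5% lower. The larger lists below ran the other way, with 11.4% of further replication genes and 23.3% of further mitotic genes called higher. Whether these shares differ was not tested.

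Taken by sort, the calls were fewer. In the Sox10 sort 5 of the 45 genes rose (Ccnd1, Cdk4, Cdkn1b, Cdt1 and Rrm2) and 2 fell (Ccnd3 and Cdkn2c), where 12.5% of all genes tested were called higher and 13.6% lower (26.1% in all). The calls of Cdk4, Cdkn1b, Cdt1 and Rrm2 in this sort were lost without either Sox10+EpCAM+ or either CD24low library (adjusted p up to 0.217). With equal sums, or TMM-like or quantile scaling, the 2 lower calls stayed and 0 or 1 gene was called higher. In the CD24 sort Ccnd1 alone rose and none fell, where 7.78% of all genes were called higher and 2.94% lower. At an unadjusted p under 0.05 the CD24 sort had 9 higher and 1 lower. The share of all genes at that cutoff was not counted, so these numbers are not read as a result about the list. The median fold of the 45 genes was 0.16 in the Sox10 sort and 0.42 in the CD24 sort, beside 0.09 and 0.13 for all genes. Without a single library the Sox10 sort gave between 2 and 11 calls, the most without either CD24+CD49f+ library and the fewest without Sox10+EpCAM+ replicate 1. The CD24 sort gave between 0 and 8, the most without CD24+CD49f+ replicate 1, then 3 without CD24+CD49f+ replicate 2, and 0 without either Sox10+EpCAM+ or either CD24low library.

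**Figure D4:**
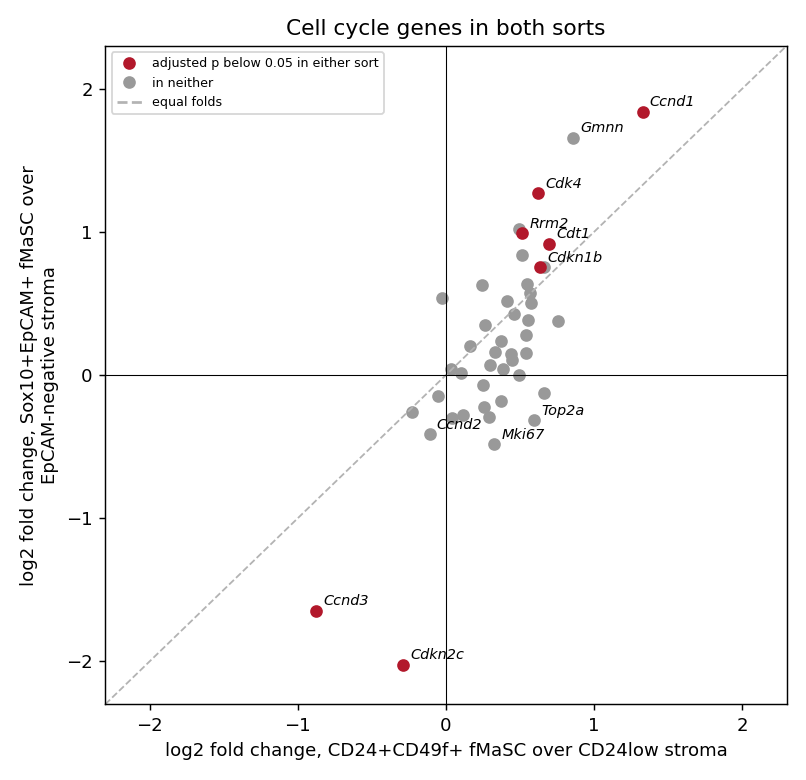
Log2 fold change of each of the 45 genes in the Sox10 sort (vertical axis) against that in the CD24 sort (horizontal axis), with a dashed line of equal folds. Red genes passed in at least 1 sort; Ccnd1 is far up in both, Cdkn2c is low in the Sox10 sort, at folds of -2.02 and -0.29, and Mki67 and Top2a lie below 0 in the Sox10 sort and above 0 in the CD24 sort.

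Between the fMaSC fractions themselves, 2 genes were lower in Sox10+EpCAM+ cells and none was higher, where 8.04% of all genes were called lower and 1.95% higher (9.99% in all). These were Cdkn2c, at -1.67 ± 0.16 (adjusted p = 0.00334, and 0.0509 without Sox10+EpCAM+ replicate 2), and Ccnd3, at -1.05 ± 0.23 (adjusted p = 0.045). The Ccnd3 call held in 6 of 17 alternatives and was lost without 5 of the 7 libraries, each Sox10+EpCAM+ and CD24low library and CD24+CD49f+ replicate 2 (adjusted p up to 0.376). Without CD24+CD49f+ replicate 1 the count of lower genes was 6. The stroma fractions showed no call among the 45 genes with limma, with 1 at an unadjusted p under 0.05 (Cdkn1a, -0.67 ± 0.23), where 0.0139% of all genes were called in each direction (0.0277% in all).

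The CD24+CD49f+ libraries differed from each other across the list. In replicate 2, 34 of the 45 genes were higher than in replicate 1, and the ratio ran from 0.481 for Gmnn to 2.58 for Mki67. Gmnn has the shortest longest transcript of the list (1127 bases) and Mki67 a transcript of 10061 bases. Across the 45 genes the log ratio of these libraries moved with transcript length (Spearman rho 0.403), as it did across 14227 genes (rho 0.652). The same value across the 45 genes was 0.301 between the Sox10+EpCAM+ replicates and -0.313 between the CD24low replicates. The erythroid marker sums of these libraries were 374.9 FPKM in replicate 2 and 3308 FPKM in replicate 1, and mitochondrial rows held 9.94% and 17.9% of summed FPKM. The part of length, red cell RNA or mitochondrial RNA in the differences of Mki67, Top2a, Foxm1 and Gmnn was not tested. Folds of fMaSC over stroma also ran with length, lower for longer transcripts. Across the 45 genes rho was -0.343 in the Sox10 sort, -0.0618 in the CD24 sort and -0.248 over both sorts. Across the 14227 genes it was -0.267, -0.153 and -0.229. The part of length in the calls was not tested. With a correction for transcript length, chosen after seeing the data, 13 genes were called over both sorts, and Mki67 remained at 0.02 (adjusted p = 0.942). Of all genes 4827 were called with this correction and 3621 without it. Tyms lost its call under it, as did Orc4 and Mad2l1 of the further lists below.

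**Figure D5:**
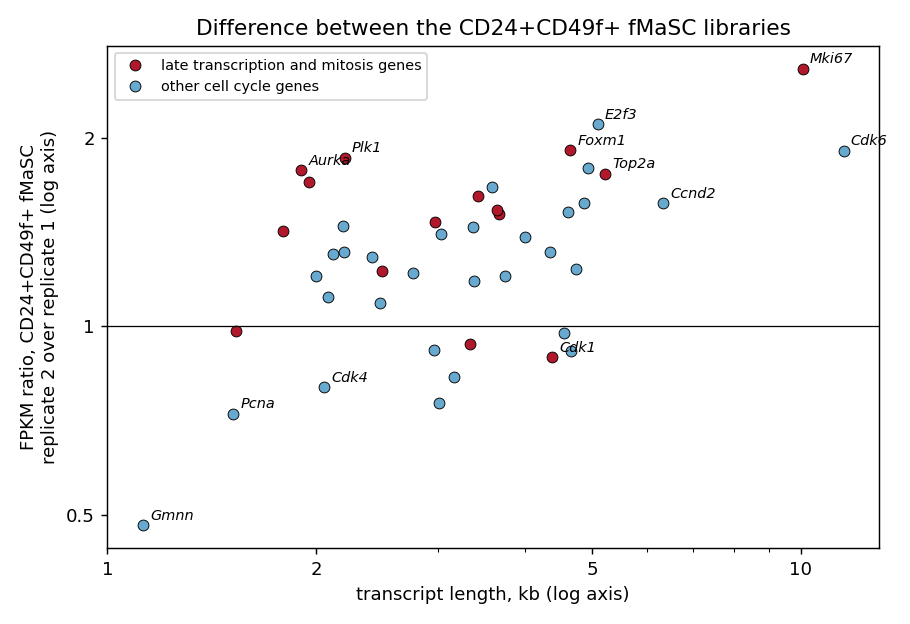
FPKM ratio of CD24+CD49f+ fMaSC replicate 2 over replicate 1 (log axis) against the longest protein-coding transcript of each gene (log axis), for the 45 genes. The ratio is 0.481 for Gmnn at the short end and 2.58 for Mki67 near the long end, and mitotic genes such as Plk1 and Aurka stand above 1 at moderate lengths.

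Of 35 further replication genes 4 rose (11.4%) and none fell, where 15.6% of all genes tested were called higher and 9.5% lower, so the share that rose was not above that of all genes. The 4 were Dut, which clears dUTP (1.18 ± 0.21, adjusted p = 0.00977), Orc4 of the origin recognition complex (0.64, adjusted p = 0.0439), the flap endonuclease Fen1 (0.62, adjusted p = 0.013) and Dbf4, the activator of the Cdc7 kinase (0.61, adjusted p = 0.0228). Dut had 38.2 and 40.0 FPKM in Sox10+EpCAM+ fMaSC and 35.9 and 22.3 FPKM in CD24+CD49f+ fMaSC, against 13.4 FPKM in EpCAM-negative stroma and 12.6 and 15.1 FPKM in CD24low stroma. The Dut call was lost without the EpCAM-negative library (adjusted p = 0.0648). Those of Fen1, Dbf4 and Orc4 were lost without that library or either Sox10+EpCAM+ library, those of Dbf4 and Orc4 also without CD24low replicate 1, that of Dbf4 without CD24low replicate 2 and that of Orc4 without CD24+CD49f+ replicate 1 (adjusted p up to 0.231). With equal sums over all rows the calls of Dut, Orc4, Fen1 and Dbf4 were all lost. Of 30 further mitotic genes 7 rose (23.3%, beside the 15.6% of all genes) and none fell. Their median fold was 0.45 in the CD24 sort, where that of all genes was 0.13, and -0.05 in the Sox10 sort, where that of all genes was 0.09.

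Among those mitotic genes the ubiquitin-conjugating enzyme of the anaphase-promoting complex, Ube2c, moved most. It had 39.8 and 37.0 FPKM in Sox10+EpCAM+ fMaSC and 33.7 and 36.5 FPKM in CD24+CD49f+ fMaSC, against 16.4 FPKM in EpCAM-negative stroma and 16.4 and 18.5 FPKM in CD24low stroma. It rose by 1.05 ± 0.13 (adjusted p = 0.0028) and stayed called without any single library, but not with equal sums or equal sums without mitochondrial rows (fold down to 0.57, adjusted p up to 0.216). Mad2l1, of the spindle checkpoint, rose by 0.87 (adjusted p = 0.0337), Cenpa, the centromeric histone, by 0.72 (adjusted p = 0.015) and Ect2, needed for cytokinesis, by 0.71 (adjusted p = 0.0449). With equal sums, over all rows or without mitochondrial rows, each of these 3 calls was lost. Each was lost too without either Sox10+EpCAM+ library or the EpCAM-negative library. Those of Mad2l1 and Ect2 were also lost without CD24low replicate 1, that of Mad2l1 without CD24+CD49f+ replicate 1 and that of Ect2 without CD24low replicate 2 (adjusted p up to 0.21).

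Cdkn1a is a classic target of p53, and 10 other p53 target genes were set beside it. Of these, 4 rose in fMaSC over both sorts (40.0%) and none fell, where 15.6% of all genes were called higher and 9.5% lower, while Cdkn1a itself was not called. In the Sox10 sort 4 rose and 1 fell, where 12.5% of all genes were called higher and 13.6% lower. Between the fMaSC fractions 1 was lower in Sox10+EpCAM+ cells, where 8.04% of all genes were. The lower gene was Gadd45b in both comparisons, named after its values were seen. Neither count of 1 lower gene is read as a result about the list. Gadd45a, a stress gene that slows the G2 to M step, had 73.9 and 68.4 FPKM in Sox10+EpCAM+ fMaSC and 48.9 and 38.5 FPKM in CD24+CD49f+ fMaSC, against 11.4 FPKM in EpCAM-negative stroma and 14.3 and 14.98 FPKM in CD24low stroma. It rose by 1.92 ± 0.24 (adjusted p = 0.0026) and passed in all 16 alternatives. Trp53inp1 rose by 1.14 ± 0.16 (adjusted p = 0.00433), the apoptosis gene Pmaip1 by 1.12 ± 0.16 (adjusted p = 0.00402) and the stress gene Sesn2 by 0.79 ± 0.16 (adjusted p = 0.0157, and up to 0.0924 without Sox10+EpCAM+ replicate 2 or the EpCAM-negative library). Pmaip1 had 0.622 FPKM in EpCAM-negative stroma and 0.616 and 0.791 FPKM in CD24low stroma, against at least 2.21 FPKM in fMaSC. It thus passed the filter of 1 FPKM only through fMaSC. Its rise, 1 of the 4 counted above, carries that limit. With equal sums the calls of Trp53inp1, Pmaip1 and Sesn2 were lost (adjusted p = 0.149, 0.061 and 0.545). Those of Trp53inp1 and Sesn2 were lost without mitochondrial rows as well.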

How the data were processed

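RNA was made from cells sorted at embryonic day 17.5, with TruSeq kits and paired-end sequencing per the labels' protocols. The authors aligned reads with STAR to GRCm38/mm10 and made values with Cufflinks, per the submitters' processing notes (versions not given in the sources used here). Per the file headers, the table as deposited holds FPKM for 7 libraries and 38579 gene entries, besides 8 added sequences left out of the tests. Symbols were matched without regard to case, and all 45 loci overlap the GENCODE vM21 gene of the same name. Depths are approximate: 73.6% to 78.4% of low values of single-transcript genes lay within 0.15 of a whole number of fragments, assuming fragments of 175 bases, so fragment counts were not recovered and no count test was run.

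Tests used log2 of the deposited FPKM plus 1, on which changes of low genes look smaller than they are. The filter asked for 1 FPKM in any 2 libraries and left 14418 genes, and limma 3.58.1 in R 4.3.3 fitted 4 group means with an empirical Bayes trend (3 residual degrees of freedom). P-values are two-sided and adjusted by Benjamini-Hochberg over all genes, with a threshold of 0.05. Counts at an unadjusted p under 0.05 are given without the share of all genes at that cutoff and are not read as results. The comparison over both sorts fitted cell type plus sorting strategy, and the sorts were compared by subtracting the CD24 fold from the Sox10 fold within the 4-group fit. EpCAM-negative stroma, a single library, takes its spread from the other groups. Libraries of a group were numbered by accession order, which pairs none of them. The fit was tested on simulated data.

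The members and lists were chosen with earlier results of these data known. All 45 genes are covered, and further lists are given by counts, with up to 4 called genes of largest fold named. The lists were other CDK inhibitors, other E2F and DREAM genes, replication machinery, mitotic machinery and p53 target genes, beside marker lists for epithelium, stroma, erythroid cells, leukocytes, mast cells, endothelium, skeletal muscle, glia and melanoblasts, and epidermis. Leukocyte markers summed to 3.24 to 11.6 FPKM in fMaSC and 7.55 to 16.3 FPKM in stroma, and endothelial markers to 2.52 to 17.4 FPKM in fMaSC and 10.2 to 21.9 FPKM in stroma. Mast cell markers summed to 3.13 to 24.8 FPKM in fMaSC and to 15.1 FPKM in EpCAM-negative stroma and 163 and 251.7 FPKM in CD24low stroma. Glia and melanoblast markers summed to 22.8 to 105.2 FPKM in fMaSC and 4.02 to 11.4 FPKM in stroma, muscle markers to 0.322 to 5.76 FPKM in fMaSC and 11.0 to 13.6 FPKM in stroma, and epidermal markers to 3.92 to 8.12 FPKM in fMaSC and 1.38 to 1.95 FPKM in stroma. Alternatives covered the pseudocount, the filter, library scaling, the variance model, the libraries fitted and transcript length. Tables and figures used Python 3.11.15, pandas 2.3.3, numpy 2.4.6, scipy 1.17.1 and matplotlib 3.10.9.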

Additional observations from a re-analysis of the deposited data

Results flagged for a closer look

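In the 4 fMaSC libraries, which come from 2 sorts, a gene was singled out where the gap between the highest or lowest library and its neighbour took up most of the range. Chance singles out about 1 in 20 groups this way. CD24+CD49f+ fMaSC replicate 2 was the high library for Mki67 (41.1 FPKM), Top2a (78.7 FPKM), Foxm1 (23.7 FPKM), Plk1 (13.0 FPKM), Aurka (11.9 FPKM), Rbl2 (5.59 FPKM) and Ect2 (13.1 FPKM). Sox10+EpCAM+ fMaSC replicate 1 was the high library for Ccnb2 (18.3 FPKM).

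Cdkn2c stood out because its fMaSC-stroma fold differed between the sorts, by -1.73 (log2) in a test of that difference (limma adjusted p = 0.0402).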

How the results depend on the processing

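The median fold of all genes over both sorts was 0.12 with FPKM as deposited, -0.31 with libraries set to equal sums (TPM), -0.25 with equal sums without mitochondrial rows, -0.01 with TMM-like factors and 0.01 with quantile scaling. Relative to that median Ccnd1 was at 1.35 to 1.41, Ccnd3 at -1.45 to -1.30 and Cdkn1b at 0.51 to 0.56. All of these scalings but the quantile one divide each library by a single factor, which moves all genes nearly alike. These relative values could therefore hardly change and are no check of the calls. With TPM the calls of Ccnd1 and Cdkn1b were lost (limma adjusted p = 0.0857 and 0.646).

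Counts of called cell cycle genes moved as follows, with the number of all genes called in brackets. Over both sorts (11, beside 3621) they were 1 with TPM (1711), 2 without mitochondrial rows (2278), 5 with TMM-like factors (3709), 7 with quantile scaling (3719) and 6 without a filter (2855). In the Sox10 sort (7, beside 3762) they were 2 with TPM (2149), 2 without mitochondrial rows (2413), 3 with TMM-like factors (3894), 3 with quantile scaling (3519) and 17 with the libraries compared alone in the fit (7878). In the CD24 sort (1, beside 1545) they were 0 with TPM (494), without mitochondrial rows (704) or with the libraries compared alone (785), 2 with TMM-like factors (1689) and 4 with the length correction (2564), chosen after seeing the data. Between the fMaSC fractions (2, beside 1440) they were 0 with TPM (419) and 1 with no filter (724), a filter of 5 FPKM (893), no mitochondrial rows (540), quantile scaling (1342) or the libraries compared alone (847). For the difference between sorts (1, beside 218) they were 0 with no filter (254), TPM (45), no mitochondrial rows (67) or quantile scaling (104). The numbers of all genes moved too, so no change of count is read as particular to this list. Leaving out each library gave 1 to 16 calls over both sorts, 2 to 11 in the Sox10 sort, 0 to 8 in the CD24 sort, 0 to 6 between the fMaSC fractions and 0 to 2 for the difference.

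Among genes that had a call, directions reversed in these cases, with Mki67 called only after the turn: Cdkn1b in the Sox10 sort was -0.018 with TPM (adjusted p = 0.984), and Mki67 over both sorts ran from -0.41 to 0.33 when each library was left out. Many genes with no call changed sign too: over both sorts 24 of 45 with TPM, 17 without mitochondrial rows, 5 with TMM-like factors and 3 with quantile scaling, and in the Sox10 sort 23, 20, 5 and 4. The cause was not tested. Among single genes, 285 values lost a call, 72 gained one and 4864 kept their side of the threshold. Leaving out the EpCAM-negative library was not possible in the Sox10 sort, between stroma fractions or for the difference, and over both sorts it leaves the CD24 comparison alone (1 call in each), so it is no separate check there; fitting the libraries compared alone was not run over both sorts or for the difference, which use all of them. No paired analysis was possible because the labels give the groups no shared replicate numbers. FPKM hold no counts, so counting error is known only approximately.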
